A study of Rattus norvegicus with 18 samples.

Results

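The comparison described here set neonatal rat cardiomyocytes kept for 48 h in stem cell conditioned medium against cardiomyocytes extracted at time zero. Its members are the 9 samples whose source name gives one or the other, 3 conditioned at 48 h and 6 at time zero, of 18 samples in all. RNA was measured on 1-colour CodeLink arrays of 2 designs. The tests rest on the larger design, with 2 conditioned arrays at 48 h (replicates 2 and 3) and 4 time zero arrays (replicates 3 to 6), and the smaller design, with 1 and 2 such arrays, gave directions only. All probes assigned to a single gene were used.

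Per the labels, cardiomyocytes, the contractile cells of the heart, were taken from day 1 rat ventricles, purified on Percoll gradients and kept for 24 h in cardiac medium. The time zero dishes were then extracted untreated. In the treated dishes, cardiac medium was brought to 50% hESC medium (medium for human embryonic stem cells) that stem cells had conditioned, with FBS at 5% and HS at 10%. An unconditioned group had the same hESC medium without conditioning, and both media were also sampled at 24 h. Serum at time zero and the line of stem cells are not given in the sources used here. Time in culture, the added hESC medium and its conditioning all differed between the groups compared here and cannot be told apart in this comparison. The unconditioned 48 h arrays (replicates 2 and 3) differ from the conditioned ones in conditioning alone, per the labels. Whether replicates come from separate cultures or animals is not in the labels, and the spread that p-values rest on may therefore be technical.

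Ventricular cardiomyocytes leave the cell cycle soon after birth, and re-entry is read from genes of S phase, G2 and mitosis. Serum and secreted growth factors act through receptors that switch on immediate early genes such as Fos and Egr1, and cytokines of the interleukin-6 family signal through gp130 and the transcription factor STAT3. Cultures from the neonatal ventricle also hold fibroblasts, endothelial cells and smooth muscle cells that divide more readily. In RNA from whole dishes, a change in the number of cells of a type and a change in the RNA of each cell cannot be told apart.

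The deposited intensities were scaled so that every array had the same median, 96.8, values under 0.05 of it were set to that floor of 4.84, and log2 values of 23694 probes were fitted with limma over all 12 arrays. Log2 changes below carry their SE and have the median over all probes, 0.163, taken off. The adjusted p-values come from the change before this step, which favours increases over decreases of equal printed size. Replicates 4 and 5 at time zero, and replicate 2 of the unconditioned 48 h group, stood apart from the other 9 arrays. Their upper quartile was 22.35 to 25.71 times the lower one, against 38.71 to 47.76 on the others. Counts without these 3 arrays are given below. All 12 listed cardiomyocyte markers were measured above the filter, with Tnnt2, cardiac troponin T, at 16294, 23583, 26637 and 33099.5 at time zero and at 23062 and 33970.3 after conditioned medium. Probes of Myh6 and Actc1 alone were not on this table.

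At an adjusted p under 0.05, 1532 of 23694 probes (6.47%) differed between 48 h in conditioned medium and time zero, 1278 higher (5.39%) and 254 lower (1.07%). With 1 probe a gene, 735 of 9953 genes rose (7.38%) and 86 fell (0.864%). Among all genes tested, the conditioned arrays both lay above all 4 time zero arrays for 2810 genes (28.2%) and both below for 497 (4.99%). The groups were apart in this way for 734 of the 735 genes that rose and 86 of the 86 that fell. Where the groups of a called gene are said below to be apart, this adds nothing to its call. The median change was 1.43 over the genes that rose and -1.91 over those that fell, and 178 of the first and 40 of the second changed by more than 2 on the log2 scale. Of 201 rising genes with more than 1 probe, 165 had all probes on the same side and 62 had all probes called.

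The split between rising and falling probes depended on the scaling. Quantile normalization called 1872 probes higher (7.9%) and 1213 lower (5.12%), a share of 60.7% higher against 83.4% with median scaling, and scaling to the 75th percentile gave 1862 and 1141. By gene, quantile normalization called 11.1% higher and 5.83% lower. Without the 3 arrays that stood apart, 2021 probes were higher and 2085 lower, and 1510 of the 1532 calls were among them. With time zero replicate 4 left out 480 probes were lower, and with time zero replicate 3 left out 162. Leaving out conditioned replicate 2 gave 422 calls and leaving out replicate 3 gave 369, with the lone conditioned array assumed to vary like the other groups. Of 99 named genes called and still tested, 43 lost their call in the first case and 47 in the second, and a gene said below to need an array is one of these. On the smaller design, 372 of the 376 rising genes measured there were also above the median change (median 1.23), as were 51.2% of all shared genes, and all 38 falling genes measured there were below it (median -1.94). Whether the smaller and the larger design were given the same RNA is not in the labels.

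Genes of G2 and mitosis were the list with the most calls. Of 54 measured and tested members, 34 rose and 0 fell, where 7.38% of all genes rose and 0.864% fell. The median change was 1.19 against 0.105 over all genes. The number rested on having both conditioned arrays, since 2 members were called without replicate 2 and 2 without replicate 3, while the median stayed at 1.21 and 1.13. Without the 3 arrays that stood apart 39 rose, with no filter on level 15, and without an intensity trend in the spread 21.

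Cdk1, the kinase that drives entry into mitosis, had intensities of 1117, 1314, 2523 and 3230.5 at time zero and 6194 and 7254 after 48 h. Its change was 1.69 ± 0.42 (adjusted p 0.0115). Both conditioned arrays lay at about the same level, well above the highest time zero array. Ccnb1, the cyclin partner of Cdk1, read 338, 621, 719 and 745 at time zero and 1474 and 1574 in conditioned medium, a change of 1.23 ± 0.34 (adjusted p 0.0202). Mki67, the gene of the proliferation antigen Ki-67, went from 279, 527, 562 and 658 to 1373 and 1529, a change of 1.42 ± 0.33 (adjusted p 0.00669). Time zero replicate 4 held the lowest value of Ccnb1 and Mki67, and no time zero array reached the conditioned level of any of the 3 genes. All 3 calls needed both conditioned arrays, and those of Cdk1 and Ccnb1 also the filter on level and the intensity trend.

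The 4 members with the smallest p were Mad2l1, Pttg1, Cep55 and Cks2. Mad2l1, part of the spindle checkpoint, was at 68.1, 93.2, 107 and 126 at time zero and at 380.3 and 386 at 48 h, a change of 1.83 ± 0.32 (adjusted p 0.000692). Pttg1, securin, changed by 1.70 ± 0.34 (adjusted p 0.00252). Cep55, a midbody protein of the final separation of daughter cells, changed by 1.69 ± 0.32 (adjusted p 0.00155), and Cks2, a small subunit bound to cyclin-dependent kinases, by 1.66 ± 0.34 (adjusted p 0.00256). Mad2l1 and Cep55 each had a further probe that was not called, and both lost their call when probes were averaged. Pttg1 needed both conditioned arrays, Cks2 replicate 2 and Cep55 replicate 3. Among the 20 members not called, the 3 with changes below 0 were Ect2, Melk and Nek2, at -1.25, -0.07 and -0.21.

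**Figure D1:**
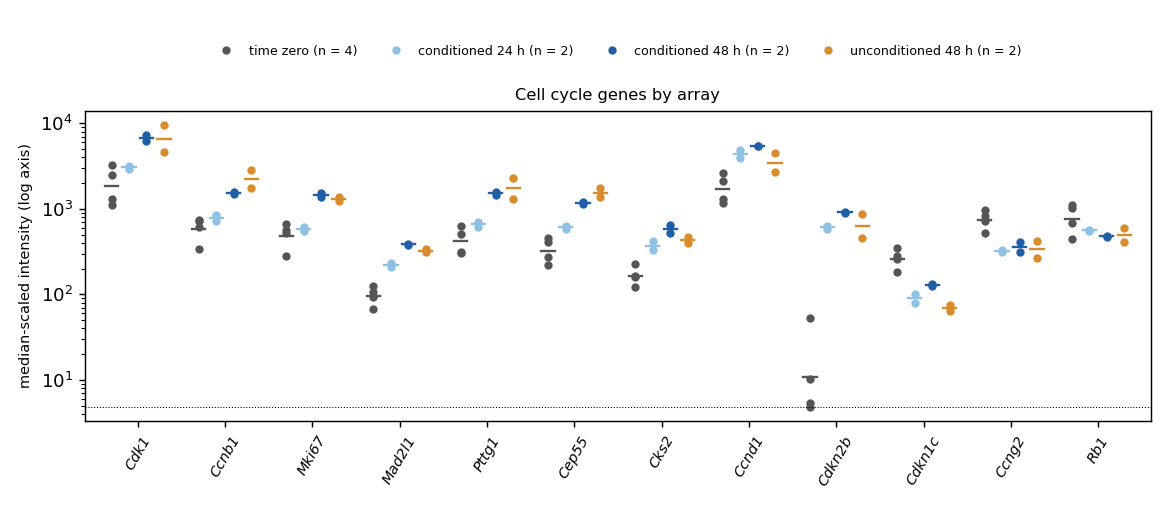
Median-scaled intensity (log axis) of 12 cell cycle genes on each array at time zero (n = 4) and in conditioned medium at 24 h, conditioned medium at 48 h and unconditioned medium at 48 h (n = 2 each), with bars at the mean and the floor as a dotted line. Cdk1, Ccnb1, Mki67 and the other mitotic genes sit higher on the arrays of both media at 48 h than on the time zero arrays.

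The other medium and the earlier hour are set beside these values, with the same time zero arrays in each. At 48 h in unconditioned medium 37 of the 54 mitotic genes rose from time zero (2.79% of all genes), with a median of 1.58. After 24 h in conditioned medium 0 of the 54 rose by limma (3.24% of all genes), with a median of 0.297 and 12 of them at an unadjusted p under 0.05. Between the media at 48 h limma called 0 of the 54, and 0 had an unadjusted p under 0.05 (median -0.376), where 10 of all genes were higher (0.1%) and 6 lower (0.0603%). Ccnb1 was at 1774 and 2816 in unconditioned medium, -0.73 ± 0.40 for conditioned minus unconditioned (adjusted p 0.749).

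Promoters of the rising mitotic genes are shown because most of them hold the same pair of short elements. Cell cycle promoters silenced outside G2 often carry the cell cycle genes homology region, TTTGAA, near CCAAT boxes. In 300-base windows around the start of each gene (RefSeq, GRCr8), both strands were searched for TTTGAA and CCAAT, which do not overlap in sequence. Of the 34 rising mitotic genes 29 had a promoter entry: 23 held TTTGAA (79.3%), 24 held CCAAT (82.8%) and 20 held both (69.0%). Among the 8292 genes tested that had an entry the shares were 11.3%, 37.7% and 4.58%, and over all 27457 promoters 18.1%, 37.7% and 7.25%. Over the 605 of all rising genes with an entry, 9.09% held both. These counts describe letters in a window and were not tested.
Below are the bases from 150 before the start to the base before it, or as far as they lie outside the annotated gene, for Cdk1 (chr20:19265143-19265251, plus strand), Ccnb1 (chr2:33655226-33655375, minus strand), Cks2 (chr17:13727520-13727669, minus strand) and Kif20a (chr18:26504272-26504421, plus strand), a mitotic kinesin. Each is written 5′ to 3′ on the strand of the gene, with TTTGAA and CCAAT, or their complements TTCAAA and ATTGG, in capitals.
Cdk1: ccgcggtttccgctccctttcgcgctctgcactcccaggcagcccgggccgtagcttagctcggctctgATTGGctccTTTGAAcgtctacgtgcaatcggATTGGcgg
Ccnb1: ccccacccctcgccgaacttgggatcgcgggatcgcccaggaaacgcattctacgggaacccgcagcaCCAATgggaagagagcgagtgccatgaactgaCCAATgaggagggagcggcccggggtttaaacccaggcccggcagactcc
Cks2: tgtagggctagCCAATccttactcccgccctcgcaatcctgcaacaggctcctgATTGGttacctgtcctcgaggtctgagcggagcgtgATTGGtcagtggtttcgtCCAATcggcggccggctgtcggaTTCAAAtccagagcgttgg
Kif20a: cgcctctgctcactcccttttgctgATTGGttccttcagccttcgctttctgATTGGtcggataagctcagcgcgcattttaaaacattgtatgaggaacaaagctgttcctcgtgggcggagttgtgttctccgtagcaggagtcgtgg
Cdk1 and Cks2 show both elements, Ccnb1 and Kif20a CCAAT alone, and Cks2 has CCAAT in 4 places. Another rising member, the checkpoint kinase Bub1, held neither in its window.

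Genes of earlier steps of the cell cycle gave fewer calls, where 7.38% of all genes rose. Of 40 DNA replication genes 5 rose and 0 fell, with a median of 0.39: Mcm5 of the replicative helicase, Gmnn, the licensing inhibitor geminin, Orc6 of the origin recognition complex, Rrm2 of ribonucleotide reductase and Uhrf1, which keeps DNA methylation through replication. Rrm2 read 54.6, 124, 156 and 160.0 at time zero and 460.4 and 627 at 48 h, a change of 2.07 ± 0.44 (adjusted p 0.00428). Uhrf1 changed by 1.83 ± 0.33 (adjusted p 0.000925), Gmnn by 1.58 ± 0.38 (adjusted p 0.00946) and Mcm5 by 1.29 ± 0.33 (adjusted p 0.0126). Without conditioned replicate 3 a single one of the 40 was called, and without replicate 2 there were 2. Mcm5 and Gmnn needed both, Rrm2 needed replicate 3, and with no filter on level 3 of the list were called.

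Of 10 G1 cyclins and their kinases, Ccnd1 (cyclin D1) and its partner Cdk6 rose, where 7.38% of all genes rose. Ccnd1 was at 1185, 1299, 2136 and 2607 at time zero and at 5415 and 5489.6 at 48 h, with both conditioned values within a narrow band above the controls. Its change was 1.51 ± 0.36 (adjusted p 0.00797), and that of Cdk6 was 1.5 ± 0.39 (adjusted p 0.0146). Both calls needed both conditioned arrays, and Cdk6 the filter and the intensity trend as well. Rb1, which restrains entry into S phase, had a change of -0.86 ± 0.35 and was not called (adjusted p 0.297), though quantile normalization called it lower.

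Among 9 inhibitors of the cell cycle 2 rose, Cdkn2b and Meis1, where 7.38% of all genes rose. Cdkn2b, the p15 inhibitor of the kinases that cyclin D activates, had time zero values of the floor, 5.40, 10.1 and 53.3. It reached 890.0 and 932 at 48 h, a change of 6.22 ± 0.66 (adjusted p 1.34e-05). The gap between the groups was wide, and the gene also stood at 458 and 869 in unconditioned medium and at 585 and 628 after 24 h in conditioned medium. Meis1, a homeobox factor, had a change of 0.98 ± 0.32 (adjusted p 0.0413), which was lost under 9 of the alternatives, among them both other scalings and removal of time zero replicate 5 or 6 or of either conditioned array. Cdkn1c (p57) read 184, 259, 278 and 351 at time zero and 125 and 131 at 48 h, a change of -1.19 ± 0.34 that missed the threshold (adjusted p 0.086). Ccng2, an atypical cyclin of resting cells, also missed it (-1.21 ± 0.32, adjusted p 0.0608). For Cdkn1c and Ccng2 both conditioned arrays lay below every time zero array, as they did for 4.99% of all genes. Quantile normalization called both genes lower, for a list count of 2 higher and 3 lower.

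The 15 largest increases over all genes ranged from 3.98 to 6.50. Ppef1, a calcium-binding protein phosphatase, was at the floor on all 4 time zero arrays and at 479 and 504 at 48 h, at least 101-fold higher on the scaled intensities against the floor (adjusted p 2.64e-05). Il17re, the receptor chain for interleukin-17C, read the floor on 2 arrays, 14.1 and 15.9 at time zero and 705 and 815 at 48 h, with a fitted change of 6.31 ± 0.52 (adjusted p 1.27e-06). These sizes depend on the floor wherever time zero arrays lie at it, as they also do for Cdkn2b, Oasl, Gnat2, Car5b and Il33.

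Several of these genes encode secreted or surface proteins. Fgl2, a prothrombinase of the fibrinogen family, stayed above the floor everywhere, with 11.4, 12.3, 18.6 and 22.4 at time zero, 446 and 464 at 48 h and a change of 4.71 ± 0.38 (adjusted p 1.09e-06). Thbd, thrombomodulin, the anticoagulant receptor of vessel walls, read 59.3, 72.0, 73.2 and 83.7 and then 1734 and 1830.0, a change of 4.47 ± 0.30 (adjusted p 2.61e-07). The time zero values of Thbd lay close together, far below both conditioned arrays. Thbd and Fgl2 have 2 probes each, of which 1 was called, and on the smaller design Thbd had a change of 0.40. Entpd1, an enzyme that degrades extracellular ATP, changed by 4.29 ± 0.59 (adjusted p 0.000117). Lgals9, galectin-9, changed by 4.49 ± 0.38 (adjusted p 1.27e-06). Pla2r1, a receptor of secreted phospholipases, rose from 42.6, 43.3, 63.6 and 81.5 to 954 and 1008, a change of 3.98 ± 0.34 (adjusted p 1.27e-06). All conditioned values of these genes lay above all their time zero values, which the rule that picked them required.

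The rest of the 15 were of mixed function. Mustn1, a small nuclear protein of regenerating muscle and bone, read 17.6, 55.1, 63.4 and 65.4 at time zero and 1029.9 and 1499.6 at 48 h, a change of 4.63 ± 0.45 (adjusted p 4.97e-06). Serpinb1a, an inhibitor of neutrophil elastase, changed by 4.36 ± 0.36 (adjusted p 1.17e-06). Oasl, an interferon-induced protein, changed by 4.49 ± 0.74 (adjusted p 0.000731), and Il33, an alarm cytokine of the nucleus, by 4.06 ± 0.78 (adjusted p 0.00245). Car5b, a mitochondrial carbonic anhydrase, changed by 4.12 ± 0.63 (adjusted p 0.000362), and Gnat2, a transducin subunit, by 4.30 ± 0.99 (adjusted p 0.00993). Gnat2 was the least precise of these, with time zero values at the floor on 2 arrays, 7.87 and 30.7, and needed both conditioned arrays and the filter on level. Il33 needed replicate 3 and the filter.

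**Figure D2:**
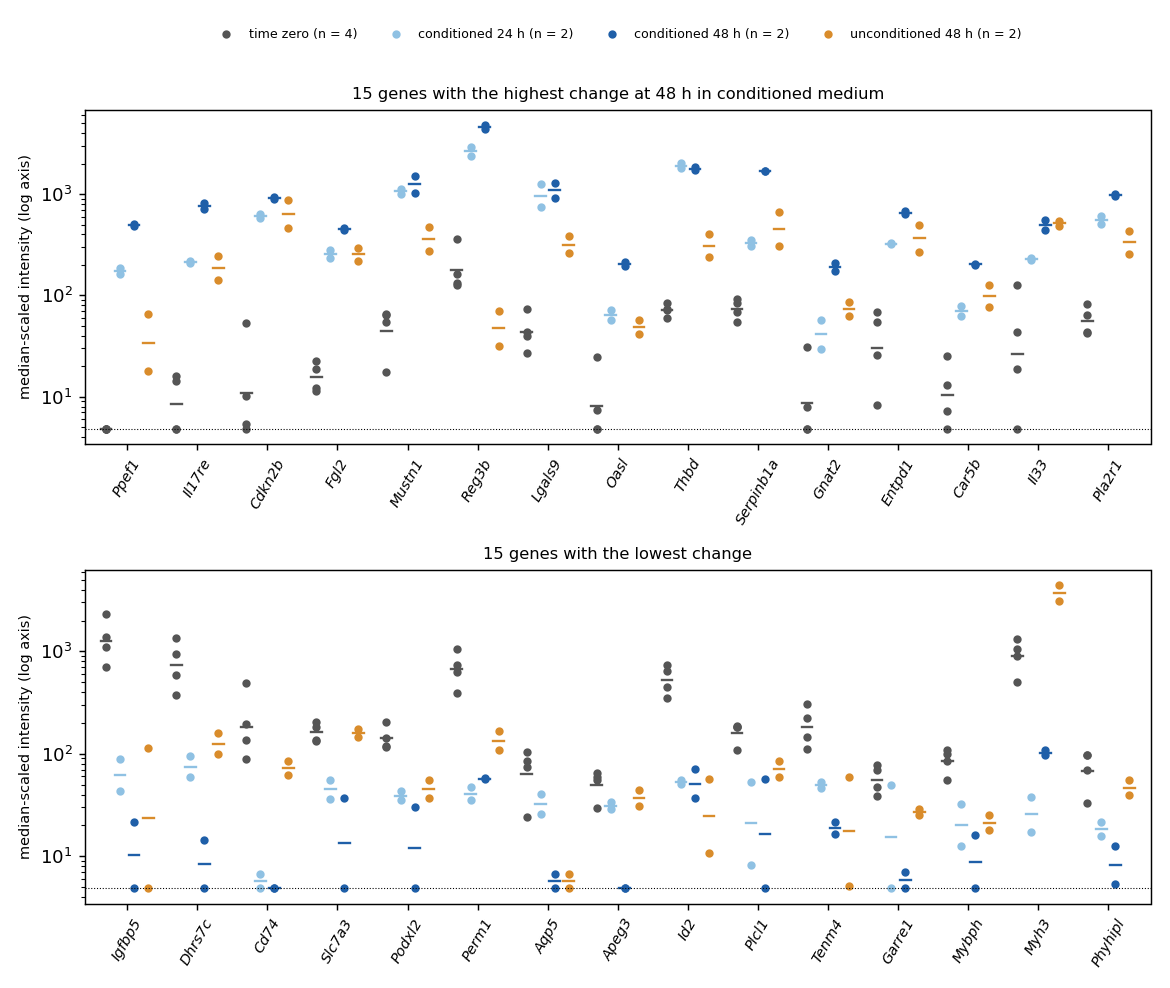
Median-scaled intensity (log axis) on each array of the 15 genes with the highest and the 15 with the lowest change at 48 h in conditioned medium against time zero, with bars at the mean and the floor of 4.84 as a dotted line. Many of the lowest genes have a conditioned 48 h array at the floor, and Myh3 and Reg3b show opposite placements of the unconditioned arrays.

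Among the 15 largest decreases, 10 had at least 1 conditioned array at the floor, and their size is set in part by it. Igfbp5, a binding protein of insulin-like growth factors, fell from 701, 1114, 1376 and 2333 to the floor and 21.4, a change of -7.11 ± 0.87 (adjusted p 8.25e-05). Dhrs7c, a dehydrogenase of the sarcoplasmic reticulum, fell from 371, 593, 945 and 1357 to the floor and 14.3, a change of -6.61 ± 0.49 (adjusted p 9.8e-07). On the smaller design Dhrs7c had a change of -5.79. Cd74, the invariant chain of MHC class II, read 88.2, 136, 194 and 494 at time zero and was at the floor on both conditioned arrays, at least 38-fold lower (adjusted p 8.25e-05).

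Perm1, a muscle regulator of mitochondrial genes, was well above the floor in both groups. Its values were 396, 635, 742 and 1048 at time zero and 56.5 and 57.7 at 48 h, a change of -3.71 ± 0.37 (adjusted p 1.44e-05). Id2, an inhibitor of basic helix-loop-helix factors, read 350.5, 451, 642 and 735 and then 36.6 and 71.5, a change of -3.52 ± 0.54 (adjusted p 0.000821). The conditioned arrays of both genes were several-fold below the lowest time zero array. Slc7a3, a transporter of cationic amino acids, changed by -3.76 ± 0.57 (adjusted p 0.000724), Podxl2, endoglycan, by -3.71 ± 0.61 (adjusted p 0.00138) and Tenm4, a teneurin, by -3.45 ± 0.71 (adjusted p 0.00861). Calls of Aqp5, Apeg3 and Garre1 were lost when the floor was raised to 0.2 of the median or a pseudocount replaced it, and without either conditioned array, and Phyhipl was lost with the raised floor and without replicate 2. Removal of time zero replicate 3 ended the calls of Aqp5, Garre1 and Plcl1, replicate 5 that of Garre1, and replicate 4 or 6 that of Aqp5. Plcl1 also needed conditioned replicate 2, Podxl2 replicate 3 and Tenm4 both.

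Of 32 immediate early and ERK response genes 15 rose and 0 fell, where 7.38% of all genes rose and 0.864% fell. The list median was 0.873. After 24 h in the same medium 14 rose (3.24% of all genes) and at 48 h in unconditioned medium 3 (2.79% of all genes). Between the media at 48 h limma called 0 of the 32, with 6 at an unadjusted p under 0.05 and a median difference of 0.224. Among ligands and receptors, Areg, an EGF receptor ligand, and Plaur, the urokinase receptor, rose. Plaur read 119.7, 141, 211 and 256 at time zero and 1046 and 1271 at 48 h, a change of 2.57 ± 0.34 (adjusted p 8.25e-05). Among transcription factors, Etv4, an ETS factor induced by ERK, went from 262, 435, 622 and 774 to 2234 and 2390.2, a change of 2.09 ± 0.39 (adjusted p 0.00164). Egr1, a zinc finger factor of the early serum response, changed by 1.99 ± 0.37 (adjusted p 0.00141) on 1 of 2 probes. Fosl1, an AP-1 subunit, changed by 1.62 ± 0.33 (adjusted p 0.00242) on both. All 4 of these named genes had conditioned arrays above every time zero array, as had 734 of the 735 rising genes. Fosl1 needed both conditioned arrays and Egr1 replicate 3, and Egr1 was not called with probes averaged. The list count was 2 without conditioned replicate 3, 4 without replicate 2, and 8 with no filter on level.

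The gp130 and STAT3 genes gave 5 increases among 16 tested and no decrease, where 7.38% of all genes rose and 0.864% fell. The list median was 0.246, with 6 members below 0. Reg3b, a secreted lectin that STAT3 induces in other tissues, read 127, 134, 161 and 359 at time zero and 4434 and 4782 at 48 h. Its change was 4.54 ± 0.41 (adjusted p 2.51e-06), while the unconditioned arrays stood at 31.4 and 70.8, below every time zero array. Osmr, the receptor chain for oncostatin M, went from the floor, 5.00, 13.9 and 17.8 to 103 and 105, a change of 3.40 ± 0.97 (adjusted p 0.0343) that was not called without time zero replicate 3 or 5. Timp1, a secreted metalloproteinase inhibitor, changed by 2.04 ± 0.37 (adjusted p 0.00112), Bcl3, a nuclear cofactor of NF-kappaB, by 1.31 ± 0.37 (adjusted p 0.0207) and Tnfrsf1a, a TNF receptor, by 1.36 ± 0.32 (adjusted p 0.00664). The STAT3 gene itself was not called (0.37 ± 0.34, adjusted p 0.441), nor was its feedback inhibitor Socs3 (0.14 ± 0.49, adjusted p 0.804). Tnfrsf1a and Bcl3 needed both conditioned arrays and Timp1 replicate 3, and Bcl3 also the filter and the intensity trend. In the list 3 genes were called without time zero replicate 5, which ended the call of Bcl3 too, 2 without conditioned replicate 2 and 1 without replicate 3.
The promoter of Reg3b is shown because it alone of the 5 held the palindrome TTCNNNGAA that STAT factors bind. It is held by 8.68% of all promoters, 6.71% of those of genes tested and 4.79% of those of all rising genes. Whether the palindrome bears on the rise of Reg3b was not tested. The stretch is chr4:112419626-112419775 (RefSeq, GRCr8, plus strand), with the palindrome in capitals.
Reg3b: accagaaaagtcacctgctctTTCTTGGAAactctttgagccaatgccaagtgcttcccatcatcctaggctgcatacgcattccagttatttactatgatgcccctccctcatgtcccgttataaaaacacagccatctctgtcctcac

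Of 28 genes of the TGF-beta and BMP pathways 9 rose and 3 fell, where 7.38% of all genes rose and 0.864% fell. The list median was 0.177. The ligands Tgfb1, Tgfb3, Bmp7 and Inhba (the activin A chain) rose, as did Fst, the activin antagonist follistatin, its relative Fstl1, the matrix partner Ltbp2, the corepressor Tgif1 and the target Tgfbi. Tgfbi was not called under quantile normalization, and 1 of its 3 probes had a change of opposite sign. Inhba went from 248, 257, 268 and 448 at time zero to 1753 and 2025 at 48 h, a change of 2.51 ± 0.33 (adjusted p 8.2e-05). Tgfb3 read 947, 1183, 1554 and 2022 and then 6823 and 7317, a change of 2.20 ± 0.35 (adjusted p 0.000403) on both probes, and Tgif1 changed by 2.23 ± 0.34 (adjusted p 0.000265). The 3 that fell were Id1 and Id2, which BMP signals induce, and Smad7, a feedback inhibitor. As the target Tgfbi rose, the targets did not all move 1 way, and what these changes mean for signalling was not tested. Id1 fell from 1517, 1620.1, 2673 and 3176 to 450.5 and 484, a change of -2.36 ± 0.34 (adjusted p 0.000637). Its groups were far apart, and unconditioned medium gave 333 and 402. Without conditioned replicate 2 or replicate 3, 3 were higher and 2 lower.

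Among insulin-like growth factor genes, 2 of 12 rose and 1, Igfbp5, fell, where 7.38% of all genes rose and 0.864% fell. Igfbp5 had 1 conditioned array at the floor, and the binding proteins Igfbp4 (1.33) and Igfbp6 (1.65) were tested and not called. Igfbp3 read 32.8, 39.5, 58.4 and 61.1 at time zero and 309 and 378 at 48 h. Igfbp3 changed by 2.72 ± 0.37 (adjusted p 0.000104) on 1 of its 2 probes and Igfbp7 by 1.23 ± 0.32 (adjusted p 0.0121), a call that needed both conditioned arrays.

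Several markers of non-muscle cells rose. Of 18 endothelial markers 11 rose and 1, the VEGF receptor Kdr, fell, with a median of 1.38. Over all genes 7.38% rose and 0.864% fell. The summed intensity of the 18 was 2750 to 3736 at time zero, 8862 to 9158 in conditioned medium at 48 h and 5913 to 8332 in unconditioned medium. Tek, the angiopoietin receptor, read 45.8, 73.1, 93.7 and 93.7 and then 516 and 520.3, a change of 2.65 ± 0.35 (adjusted p 7.2e-05). Nos3, endothelial nitric oxide synthase, changed by 2.19 ± 0.34 (adjusted p 0.000301) and Esam, a junction protein, by 2.09 ± 0.32 (adjusted p 0.000274). The conditioned arrays of Tek, Nos3 and Esam lay close to each other and clear of time zero. The count of rising markers was 6 without conditioned replicate 2 and 5 without replicate 3, and 12 without the 3 arrays that stood apart.

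Of 30 fibroblast and matrix genes 10 rose and 1 fell, where 7.38% of all genes rose and 0.864% fell. The list median was 0.731, and its summed intensity was 48380 to 85650 at time zero against 112900 to 114900 at 48 h. Fn1, fibronectin, went from 1348, 1693, 2229 and 2756 to 10069 and 11061, a change of 2.28 ± 0.32 (adjusted p 0.000104) on both probes. Fbln2, a fibulin, changed by 2.44 ± 0.33 (adjusted p 8.25e-05) and Lox, which crosslinks collagen and elastin, by 2.24 ± 0.32 (adjusted p 0.000131). Col1a1, the main fibrillar collagen, had a change of 0.74 ± 0.34 and was not called (adjusted p 0.131), with 1 of its 2 probes past the threshold. The gene that fell was Eln, elastin, from 1092, 1151, 1706 and 2462 at time zero to 336 and 405 at 48 h, a change of -2.20 ± 0.37 (adjusted p 0.0021). Eln moved against the 10 rising members, and unconditioned medium gave 2202 and 4366. Without conditioned replicate 2 there were 4 increases, and without replicate 3 there were 3.

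Of 15 smooth muscle and pericyte genes 5 rose, where 7.38% of all genes rose, and the list median was 0.683. The 5 were the contractile genes Tagln and Cnn1, the pericyte proteoglycan Cspg4 and Kcnj8 and Abcc9, the pore and the regulator of a potassium channel. Cspg4 read 443, 704, 1198 and 1294 and then 5033 and 5085, a change of 2.44 ± 0.41 (adjusted p 0.000692). Kcnj8 read the floor, 8.26, 21.6 and 72.9 at time zero and 193 and 216 at 48 h, a change of 3.53 ± 0.94 (adjusted p 0.0246). It was called on both probes but not under 75th percentile scaling, with no filter, without an intensity trend, without time zero replicate 3 or without either conditioned array. Acta2, smooth muscle actin, was not called (0.68 ± 0.33, adjusted p 0.158). Tagln and Cnn1 needed both conditioned arrays, and either one alone left 1 call in the list.

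Of 6 epicardial markers the keratins Krt8 and Krt19 rose, Krt8 from 104, 181, 194 and 258 to 2026 and 2177 (3.42 ± 0.35, adjusted p 8.7e-06) and Krt19 by 3.92 ± 0.98 (adjusted p 0.017), which needed both conditioned arrays and the filter. The other members, Wt1 (-0.23), Tbx18 (0.03), Upk1b (0.25) and Aldh1a2 (0.53), were not called, and the list median was 0.388. Over all genes 7.38% rose and 0.864% fell. Of 16 leukocyte markers Cd74 fell and the other 15 were not called, with a median of -0.784. Their summed intensity was 2527 to 4442 at time zero and 2137 to 2207 at 48 h, and 13 more were measured but below the filter. In the erythroid (3), Schwann cell (5) and adipocyte (3) lists limma called 0 genes, and 0 had an unadjusted p under 0.05. How far these markers bear on the mitotic, matrix and cytokine genes above was not tested.

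**Figure D3:**
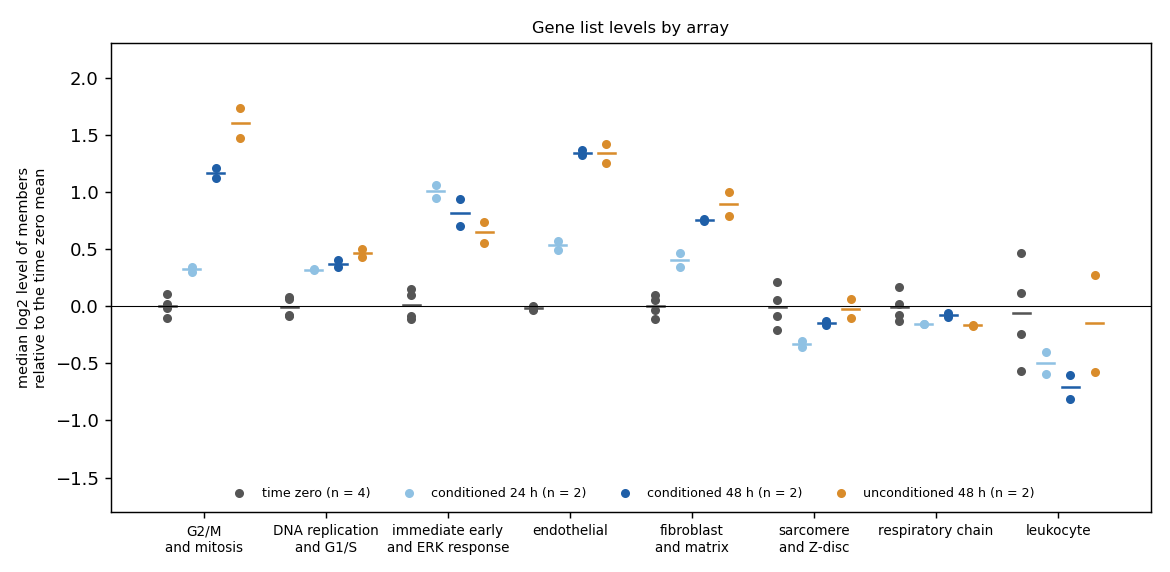
Median over the members of 8 gene lists of their log2 level relative to the time zero mean, on each array at time zero (n = 4) and in conditioned medium at 24 h, conditioned medium at 48 h and unconditioned medium at 48 h (n = 2 each), with bars at the mean. For G2 and mitosis genes the conditioned 48 h arrays sit at 1.12 and 1.21 and the time zero arrays between -0.11 and 0.10, while for the respiratory chain all groups lie near 0.

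Cardiomyocyte genes gave few calls, where 7.38% of all genes rose and 0.864% fell. Of 12 markers 1, Myl7, fell and 0 rose, with a median of -0.0031, and their summed intensity was 155500 to 318500 at time zero and 219500 to 235800 at 48 h. The natriuretic peptides Nppa and Nppb had changes of 0.16 ± 0.32 (adjusted p 0.661) and 0.17 ± 0.34 (adjusted p 0.669), and the slow myosin Myh7 0.16 ± 0.36 (adjusted p 0.701). Tnnt2, cardiac troponin T, had 0.05 ± 0.35 (adjusted p 0.804) and Atp2a2, the calcium pump of the sarcoplasmic reticulum, -0.18 ± 0.33 (adjusted p 0.99). The conditioned arrays of these 5 genes lay inside the time zero range or overlapped it, and 1 of the 2 probes of Atp2a2 passed the threshold. Of 12 cardiac transcription factors limma called 0, with 1 at an unadjusted p under 0.05, and Nkx2-5 was at -0.83 ± 0.35 (adjusted p 0.326).

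Of 26 sarcomere and Z-disc genes 2 rose and 4 fell, with a median of -0.136, where 7.38% of all genes rose and 0.864% fell. The number that rose is thus near the share of all genes. Myl7, the atrial light chain, went from 8178, 8448, 11717 and 13533 to 3263 and 3798, a change of -1.70 ± 0.31 (adjusted p 0.00487). Myom2, an M-band protein of mature muscle, read 1101, 1118, 1754 and 2352 and then 278 and 281, a change of -2.59 ± 0.36 (adjusted p 0.000343). The other decreases were Tcap, telethonin, and Mybph, a myosin-binding protein (-3.41 ± 0.68, adjusted p 0.00667). Tpm1, a tropomyosin, rose by 1.68 ± 0.34 (adjusted p 0.0022) on 1 of 2 probes, the other having a change of opposite sign, and Nebl, a nebulin relative of the Z-disc, rose too. Quantile normalization called 8 lower and 2 higher. Myl7 needed both conditioned arrays, Mybph replicate 2 and Tpm1 replicate 3. Without conditioned replicate 2 a single one was lower and 1 higher, and without replicate 3 there were 2 lower and 0 higher.

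Of 7 skeletal and embryonic myosin and troponin genes tested Myh3 and Myh2 fell, where 0.864% of all genes fell. Myh3 and Myh2 encode the embryonic and a fast skeletal heavy chain. The other 5 were not called, among them Tnnt1 (0.85) and Myl11 (0.22) above 0 and Tnnc2 (-0.50) below it. The list median was -0.103, with 3 members above 0 and 4 below. Myh3 read 504, 908, 1065 and 1306 at time zero, 96.2 and 109 in conditioned medium at 48 h and 3073 and 4441 in unconditioned medium. Its change was -3.29 ± 0.39 (adjusted p 8.31e-05), and its groups were fully apart. Myh2 changed by -1.64 ± 0.39 (adjusted p 0.0279), a call lost without time zero replicate 3 or either conditioned array, with no filter or without the intensity trend. Heavy chain genes are near-identical over long stretches, so their probes may share signal.

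Of 30 calcium and ion channel genes 3 rose and 3 fell, where 7.38% of all genes rose and 0.864% fell. The number that rose is thus near the share of all genes. Gja5, the connexin of conduction tissue and arterial endothelium, went from 147, 206, 280.3 and 297 to 3321 and 3579.9, a change of 3.78 ± 0.36 (adjusted p 3.69e-06). Its other probes were not called and the smaller design gave 0.80. Hrc, which buffers calcium inside the sarcoplasmic reticulum, fell from 1472, 2850.3, 3101 and 3721 to 601 and 642, a change of -2.25 ± 0.36 (adjusted p 0.00146) on both probes. Asph, which holds the reticulum protein junctin, changed by -1.60 ± 0.36 (adjusted p 0.0236) and Atp2b2, a plasma membrane calcium pump, by -2.62 ± 0.53 (adjusted p 0.00839). Asph lost its call without time zero replicate 3 or either conditioned array and Atp2b2 without replicate 3 of the conditioned group, and both with no filter.

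Of 53 respiratory chain genes limma called 0, with a median of -0.0625 and 1 gene at an unadjusted p under 0.05, while quantile normalization called 8 lower. Of 36 fatty acid oxidation and PPAR genes 3 rose and Perm1 fell, where 7.38% of all genes rose and 0.864% fell. This balance turned with the processing, since quantile normalization gave 3 higher and 6 lower and removal of the 3 outlying arrays 4 and 7. The number that rose is near the share of all genes, and the list median was -0.0683, with 22 of the 36 below 0. The 3 rising genes were Angptl4, a secreted lipase inhibitor, Plin2, a lipid droplet coat, and Pparg, the gene of PPAR-gamma. Angptl4 read 341, 364, 863 and 879 at time zero and 4329 and 5149 at 48 h, a change of 2.93 ± 0.41 (adjusted p 0.000114). Pparg changed by 2.39 ± 0.40 (adjusted p 0.000633) on both probes and Plin2 by 1.83 ± 0.38 (adjusted p 0.00333). Of 27 cholesterol and SREBP genes 4 rose, with a median of 0.525, led by the desaturase Scd2 at 2.78 ± 0.33 (adjusted p 2.64e-05). The other 3, Fads1, Lss and Elovl6, lost their calls with no filter. Lss and Elovl6 also lost theirs without the intensity trend or without time zero replicate 5. For Lss 1 of 3 probes had a change of opposite sign. In glycolysis (22 genes) Pfkp and Aldoc rose, among 18 hypoxia targets Ndrg1 (2.11 ± 0.36, adjusted p 0.000724) and Plod2, and among 34 amino acid and ER stress genes Slc7a3 alone was called. The hypoxia list had 2 higher and 3 lower under quantile normalization. In the amino acid and ER stress list 9 were lower under quantile normalization, 6 under 75th percentile scaling, 8 with array weights and 10 without the 3 arrays that stood apart. Pfkp, Aldoc, Plin2, Plod2, Fads1, Lss and Elovl6 needed both conditioned arrays. Pfkp and Aldoc also needed time zero replicate 5, the filter on level and the intensity trend. Aldoc was not called in a fit of the 2 groups alone.

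Of 23 NRF2 targets 5 rose and 0 fell, with a median of 0.434, where 7.38% of all genes rose and 0.864% fell. Aldh3a1, an aldehyde dehydrogenase, read 96.8, 111, 126 and 195 at time zero and 2118 and 2291 at 48 h, a change of 3.95 ± 0.34 (adjusted p 1.27e-06). It was as high in unconditioned medium, at 1696 and 3089. Akr1b8, an aldo-keto reductase, changed by 2.09 ± 0.31 (adjusted p 0.000216), Gsta2, a glutathione transferase, by 2.03 ± 0.36 (adjusted p 0.000991) and Nqo1, the quinone reductase, by 1.31 ± 0.30 (adjusted p 0.00596). These targets were higher on both conditioned arrays than on every time zero array, as were 734 of the 735 rising genes. Nqo1 needed both conditioned arrays for its call.

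Of 27 interferon genes Isg15, Oasl and Psmb8 rose, with Isg15, a ubiquitin-like modifier, at 94.5, 106, 114 and 199 and then 519 and 545 (1.95 ± 0.35, adjusted p 0.000882). The share of all genes was 7.38% higher and 0.864% lower. Of 30 inflammatory genes Il33, Ccl2, Cxcl12 and Cebpd rose and the chemokine Ccl20 fell, from 655, 948, 1102 and 1240.2 to 293 and 343 (-1.76 ± 0.34, adjusted p 0.00785). Ccl2 had a change of 0.89 ± 0.29 (adjusted p 0.0359) that quantile normalization did not call. In the Notch (10 genes) and ribosomal protein (28) lists limma called 0, with 1 and 3 at an unadjusted p under 0.05, and of 15 p53 targets Perp rose (0.91 ± 0.29, adjusted p 0.0327). The p53 list turned with the scaling, with 2 higher and 5 lower under quantile normalization, among the latter Mdm2 and Bax. Of 13 genes of the cardiac stress and fetal program, Timp1 and the matrix protein Postn rose, genes that other lists hold too. Postn, Ccl2, Ccl20, Cebpd, Psmb8 and Perp needed both conditioned arrays, Il33 and Timp1 replicate 3, and Cebpd, Psmb8 and Perp also time zero replicate 5.

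**Figure D4:**
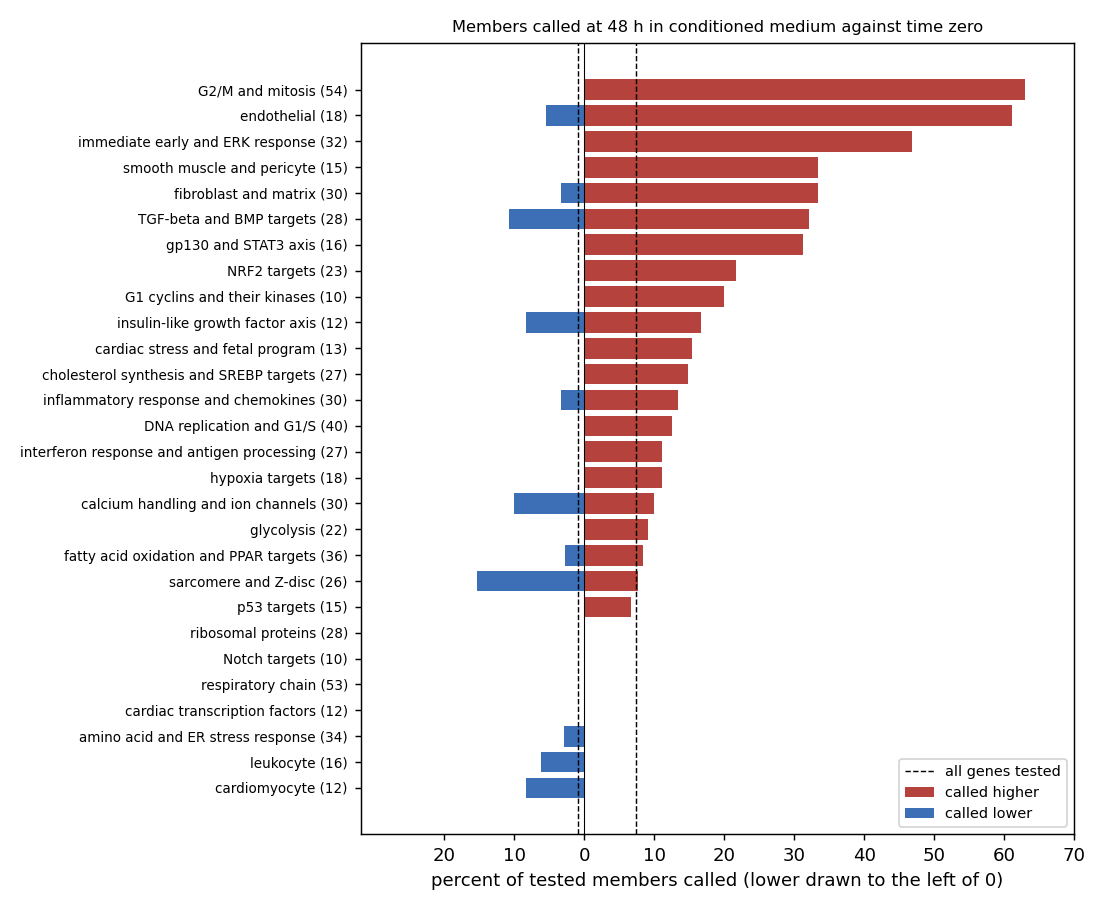
Share of the tested members of each gene list (number in brackets) that were called higher (to the right of 0) or lower (to the left) at 48 h in conditioned medium against time zero, with dashed lines at the share of all genes tested, 7.38% and 0.864%. G2 and mitosis genes, with 34 of 54 higher, and endothelial genes, with 11 of 18, extend furthest.

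Between conditioned and unconditioned medium at 48 h, 905 of 9953 genes had an unadjusted p under 0.05. Of the 735 genes that rose 10 and of the 86 that fell 5 passed limma's test between the media after adjustment. Reg3b was 6.43 ± 0.47 higher in conditioned medium (adjusted p 1.56e-06) and Thbd 2.35 ± 0.35 (adjusted p 0.00354). Also higher were Runx1, a transcription factor of blood and skeletal development, Cyb561, a cytochrome of secretory granules, Lgals3, galectin-3, Paqr8, Ppp2r2b, Aldoc, the brain-type aldolase, and Fam180a. Lgals3 read 5803 and 6091 in conditioned and 798 and 1168 in unconditioned medium, where time zero had 658, 884, 939 and 1044 and overlapped the latter. Atp12a, a proton pump, rose from time zero but was lower than in unconditioned medium, at 371 and 496 against 1892 and 3521 (-2.77 ± 0.41, adjusted p 0.0102). Runx1, Cyb561, Lgals3, Paqr8, Ppp2r2b, Fam180a and Atp12a are named here after their values were seen.

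The falling genes that differed between media were Dhrs7c, Myh3, Myh2, Slc7a3 and Eln, all lower in conditioned medium. For Myh3 the difference was -5.35 ± 0.45 (adjusted p 2.03e-05), for Myh2 -3.92 ± 0.45 (adjusted p 0.00125) and for Eln -3.25 ± 0.42 (adjusted p 0.00354). The median change of the 735 rising genes was 1.03 in unconditioned medium at 48 h and 1.03 in conditioned medium at 24 h, from the same time zero arrays, and that of the 86 falling genes was -1.14 and -1.67. Between 24 h and 48 h in conditioned medium limma called 0 genes (0% either way), with 263 of all genes and 28 of the 54 mitotic genes at an unadjusted p under 0.05. At the threshold, Trip6 was the last gene called (0.95, adjusted p 0.04997) and Tspan12 the first left out (0.99, adjusted p 0.0503).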

How the data were processed

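The deposited values are linear spot intensity of biotin-labelled total RNA on 1-colour CodeLink arrays, per the labels; how they were scanned, background-corrected or normalized is not given in the sources used here. Array medians of the deposited intensity ran from 70.3 to 143.6 on the larger table. Each of the 12 arrays was scaled to the table's median of 96.8, floored at 0.05 of it (4.84) and taken to log2. Probes at or below the 30th percentile of mean level were left out, keeping 23694 of 33849 probes. Of the 33849, 16753 had 1 gene symbol, 165 several and 16931 none; 16836 symbols were updated through RefSeq gene identifiers and 29 kept. A gene was represented by its brightest probe. All 5 groups were fitted by lmFit and trended eBayes of limma 3.58.1 (R 4.3.3; 7 residual and 10.4 prior degrees of freedom), with Benjamini-Hochberg adjustment over all probes and calls at an adjusted p under 0.05. "At least" folds set the mean of one group against the floor. The 6 arrays of the smaller table were scaled in the same way. The number of arrays limits the precision.

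Named genes were, of those called with groups apart, the 15 with the largest increase and the 15 with the largest decrease, up to 4 members of each list with the smallest p, and Myh6, Myh7, Nppa, Nppb, Tnnt2, Actc1, Atp2a2, Col1a1, Acta2, Ccnb1, Mki67, Cdk1, Ccnd1, Reg3b, Osmr, Myh3 and Kcnj8. Others were named where a list had few calls. Samples, lists and rules were chosen with earlier results of these data known. Lists are described by counts and medians, with no test. Alternatives covered scaling, filter, floor, spread, the groups fitted, probe averaging and left-out arrays. The scripts were tested on simulated data. Replicate numbers follow deposition order and pair nothing. Promoters are RefSeq's on GRCr8. Figures used matplotlib 3.10.9 in Python 3.11.15.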

Additional observations from a re-analysis of the deposited data

Results flagged for a closer look

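In the 4 time zero arrays 9 of the 159 named genes tested had 1 array far from the other 3 by Dixon's test, where chance flags about 1 group in 20. Replicate 4 was low for Mustn1 (17.63) and Postn (94.36), and replicate 6 was high for Inhba (447.6) and low, below the floor, for Nrarp (0.9644). Replicate 3 was high for Uqcrh of the respiratory chain (7123). Replicate 5 was high for the erythroid genes Ahsp (191.6) and Slc4a1 (751.1) and low for Nkx2-5 (312.9) and Plcl1 (109.1). Of these 9 genes Mustn1, Inhba, Postn and Plcl1 were called against time zero.

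For 7 named genes the change from time zero differed between conditioned and unconditioned medium at 48 h by limma's test of that difference, given as conditioned minus unconditioned. The difference was 6.431 for Reg3b, 2.346 for Thbd and 1.94 for Aldoc. It was -3.925 for Myh2, -5.349 for Myh3, -3.757 for Slc7a3 and -4.083 for Dhrs7c. For Reg3b, Myh2 and Myh3 the 2 media lay on opposite sides of time zero.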

How the results depend on the processing

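Against 1532 called probes (1278 higher, 254 lower), quantile normalization gave 3085 with 1213 lower, 75th percentile scaling 3003 with 1141 lower, no filter 948 (810 higher, 138 lower), array weights 4899 (2959 and 1940), and a fit of the 2 groups alone 829 higher. Leaving out the 3 arrays that stood apart gave 4106 (2021 and 2085). Leaving out 1 array gave from 369 to 1932 calls, from 290 to 1719 higher and from 79 to 480 lower, with the fewest without a conditioned array. The filter at the 50th percentile, the floor at 0.2, the pseudocount, no intensity trend and averaged probes kept the counts within 1.5 times. No called named gene took the opposite sign, but the balance of higher and lower calls turned without the 3 arrays and, under quantile normalization, in the fatty acid oxidation, p53, hypoxia and cell cycle inhibitor lists. Of 100 named calls, 98 held under quantile normalization, 74 without a filter, 100 with array weights, and 56 and 52 of 99 without conditioned replicate 2 or 3. No paired analysis was possible because the labels give no replicate numbers. With 2 conditioned arrays, small changes of single genes cannot be resolved, and genes near the floor have changes that the floor sets.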
